A study of Mus musculus with 6 samples.

Results

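The mouse caspase genes Casp1, Casp2, Casp4, Casp6, Casp8, Casp9 and Casp12, were followed in sorted olfactory stem cells. The members were chosen by name, as rows of the deposited expression table that list the gene, and they were proposed with earlier results of the same libraries in view. They number 7 of 44519 rows. All 7 reached at least 1 FPKM (fragments per kilobase of transcript, scaled to the reads of the library) in each of the 6 libraries, and all were among the 15037 rows that reached 1 FPKM in 3 or more libraries and so entered the test across rows. Because the members were proposed from this contrast, their own differences are given as a description and carry no test.

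Caspases are cysteine proteases that are made as inactive proenzymes and cut their targets after aspartate. The apoptotic members start or carry out programmed cell death, whereas the inflammatory members act in inflammation. Caspase 1 is switched on in protein platforms called inflammasomes. There it matures interleukin 1 beta and interleukin 18 and opens membrane pores through gasdermin D. Transcript levels say nothing of cleavage, which is how caspases are activated.

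The libraries were made from GFP-positive horizontal basal cells, reserve stem cells at the base of the olfactory epithelium, taken from olfactory neuroepithelium by flow sorting. In the control group (replicates 1, 2 and 4) the mice had genotype Krt17-EGFP and the description NoDox. In the TNF group (replicates 1, 3 and 4) they had genotype Krt17-EGFP; Cyp2g1-rtTA; TRE-TNF and the description Dox 6w, for 6 weeks of doxycycline-driven inflammation. The reporter was shared by both groups, and the added transgenes and doxycycline came together, so their contributions cannot be told apart. The Cyp2g1 promoter is known for activity in sustentacular cells, the supporting cells of this epithelium. Ages, and whether each library came from 1 mouse, were not given in the sources used here, so p-values measure the spread between these samples.

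The FPKM values of a library summed to 688190 to 838417, and absolute read depth is unknown. Of the 15037 rows tested, 38.0% passed an adjusted p of 0.05 (limma, Benjamini-Hochberg adjustment), 10.9% as higher and 27.2% as lower in the TNF group, and in 53.0% the ranges of the groups did not overlap. The median row differed by -0.22 on the log2 scale with the deposited values, by -0.07, -0.01 and 0.05 with median-of-ratios, upper-quartile and quantile scaling, and by -1.22 when libraries were scaled to genes that mark horizontal basal cells. Of the calls 28.6% were higher in the TNF group, a share of 40.7%, 48% and 3.65% with the upper-quartile, quantile and basal cell scalings. Values of single libraries are given throughout in the order control replicates 1, 2 and 4, then TNF replicates 1, 3 and 4. Control replicate 4 and TNF replicate 1 stood apart. Across rows, control replicates 1 and 2 correlated at 0.972 while control replicate 4 correlated with them at 0.931 and 0.922, and TNF replicates 3 and 4 correlated at 0.983 while TNF replicate 1 correlated with them at 0.912 and 0.909. All 11 basal cell markers reached 1 FPKM in every library, and their sum was 761 to 3080 FPKM in controls, lowest in replicate 4, and 4620 to 7398 FPKM with TNF, with 4 of 11 called higher. Most of each sum was the merged row of Krt14 and Krt17, at 402 to 2265 and 3645 to 5651 FPKM. That row did not pass (adjusted p = 0.0741). Trp63, the master transcription factor of basal cells, was at 75.3 ± 9.43 FPKM (SD, n = 3) in controls and 97.2 ± 18.8 in the TNF group (adjusted p = 0.196). The summed markers of mature olfactory neurons were nevertheless 2645 to 5184 FPKM in controls, 919 in TNF replicate 1 and 35.5 to 43.0 in the other 2 TNF libraries, with all 8 called lower. All 6 immature neuron markers were called lower as well, with sums of 3707 to 8002 FPKM in controls and 262 to 407 FPKM with TNF, as were 3 of 5 sustentacular markers, with Cyp2g1 at 246 to 332 FPKM in controls and 0.221 to 26.5 FPKM with TNF. The part of these cell types in the results below was not tested.

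Casp1, Casp4 and Casp12 lie side by side on the plus strand of chromosome 9 (mm10), within 74516 bp. Casp1 spans chr9:5298517-5307275, Casp4 spans chr9:5308828-5336783 and Casp12 spans chr9:5345430-5373032, with gaps of 1552 and 8646 bp between them. The other members are single genes elsewhere, with Casp8 at chr1:58795374-58847503, Casp2 at chr6:42264985-42282508, Casp9 at chr4:141793612-141815976 and Casp6 at chr3:129901425-129914103 (GENCODE M21 bounds for Casp9 and Casp6, as the deposited rows there span neighbouring genes). Within annotated transcripts, 0 stretches of 50 bases were shared between any of the 7 genes, including the 3 neighbours.

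RefSeq windows of 250 bases before the transcription start (GRCm38.p6, the coordinates of mm10) were found for all 7 members. They differed in base composition between the gene sets. The windows of Casp1, Casp4 and Casp12 held 1, 3 and 1 CG steps and 49.2%, 41.6% and 39.2% G and C. Those of Casp2, Casp6 and Casp9 held 17, 11 and 25 CG steps and 60.4%, 58.4% and 66% G and C, against medians of 6 and 52.4% over all 32851 windows. Casp8 was the exception among the apoptotic members, with 5 CG steps and 39.6%, in a window (chr1:58802252-58802501) that lies downstream of the first annotated start. The windows of Casp1 (chr9:5298267-5298516, plus strand) and Casp9 (chr4:141793362-141793611, plus strand) are shown as an example of a window with 1 CG step and the one with 25, with each CG step in capitals.
Casp1: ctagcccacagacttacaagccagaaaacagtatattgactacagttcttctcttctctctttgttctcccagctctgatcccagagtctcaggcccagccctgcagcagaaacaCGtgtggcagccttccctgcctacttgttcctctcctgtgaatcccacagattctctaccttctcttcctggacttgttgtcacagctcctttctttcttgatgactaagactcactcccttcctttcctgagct
Casp9: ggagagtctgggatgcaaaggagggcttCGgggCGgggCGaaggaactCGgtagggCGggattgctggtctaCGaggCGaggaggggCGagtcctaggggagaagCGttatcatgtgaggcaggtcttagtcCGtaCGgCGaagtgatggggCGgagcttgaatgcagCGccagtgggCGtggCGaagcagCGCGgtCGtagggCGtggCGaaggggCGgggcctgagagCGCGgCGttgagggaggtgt

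The same windows were searched on both strands for 3 motifs tied to inflammatory signalling. These were the core of the interferon-stimulated response element (GAAANNGAAA), the core of the STAT-binding GAS element (TTCNNNGAA) and the NF-kB consensus, which were present in 2.98%, 7.02% and 7.25% of all windows. The Casp4 window held NF-kB matches at chr9:5308756-5308766, where GGGGATTTCC and GGGATTTCCC overlap, and at chr9:5308810-5308819. The Casp12 window held the GAS core as TTCTGGGAA at chr9:5345374-5345382 and again at chr9:5345440-5345448, the latter past the first annotated start and so not printed. In the windows of the other 5 members none of the 3 motifs was found. The upstream parts of the Casp4 window (chr9:5308599-5308827) and the Casp12 window (chr9:5345226-5345429) are shown because they carry these matches, in capitals. A match is a string of letters and not evidence of binding.
Casp4: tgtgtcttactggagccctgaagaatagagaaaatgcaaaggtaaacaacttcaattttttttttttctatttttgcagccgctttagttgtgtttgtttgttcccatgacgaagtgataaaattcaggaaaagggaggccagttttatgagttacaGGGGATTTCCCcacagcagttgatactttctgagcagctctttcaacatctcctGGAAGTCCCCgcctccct
Casp12: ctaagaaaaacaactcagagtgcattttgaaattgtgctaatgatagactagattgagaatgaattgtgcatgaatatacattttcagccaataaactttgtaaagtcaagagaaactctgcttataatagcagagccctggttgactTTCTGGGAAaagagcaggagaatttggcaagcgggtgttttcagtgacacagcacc

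The inflammatory caspases were higher in the TNF group, all 3 of them in each TNF library above every control library. Casp12 differed most. It encodes a caspase of the inflammatory cluster that has been tied to the endoplasmic reticulum. The control libraries measured 2.37, 2.43 and 2.64 FPKM of Casp12 and the TNF libraries 34.9, 56.7 and 74.0 FPKM. The controls were tightly grouped and the lowest TNF library was far above them. The means were 2.48 ± 0.141 and 55.2 ± 19.6 FPKM (SD, n = 3), a ratio of 22.2 and a difference of 3.95 on the log2(FPKM + 1) scale. Among the rows tested, Casp12 ranked at percentile 14.96 by control mean and 84.3 by TNF mean.

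Casp4, the mouse gene for the protease also called caspase 11, senses cytosolic lipopolysaccharide and cuts gasdermin D directly. Its level was 6.30, 13.6 and 3.02 FPKM in the controls and 26.3, 59.4 and 51.6 FPKM with TNF. Control replicate 4 was the lowest of the 6, and the control libraries were spread more widely than for Casp12. The means were 7.64 ± 5.41 and 45.7 ± 17.3 FPKM, a ratio of 5.99 and a log2 difference of 2.55.

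Casp1, the protease of the canonical inflammasome, gave 1.60, 1.41 and 9.25 FPKM without TNF and 15.3, 34.3 and 30.8 FPKM with it. Here control replicate 4 was the highest control, the reverse of its place for Casp4. Means of 4.09 ± 4.47 and 26.8 ± 10.1 FPKM gave a ratio of 6.56 and a log2 difference of 2.72. Without control replicate 4 the log2 difference was 3.40, and with TNF replicate 1 left out as well it was 3.74. The same omission of both libraries gave 4.27 for Casp12 and 2.45 for Casp4. TNF replicate 1 was the lowest TNF library for each of the 3 genes.

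**Figure D1:**
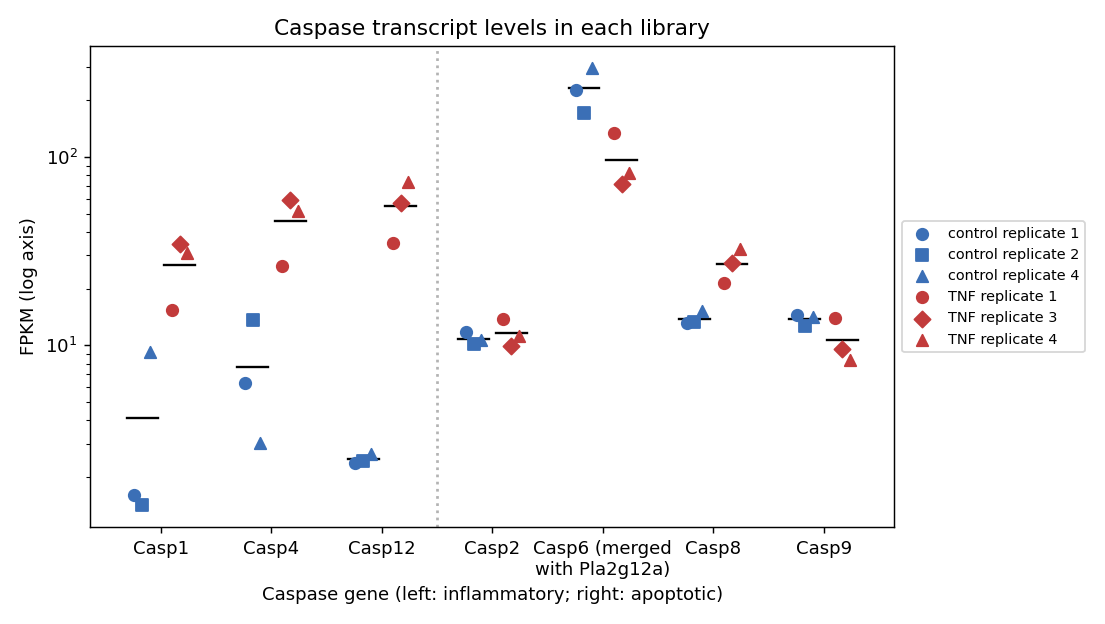
FPKM of the 7 caspase genes in each library on a log axis, with control libraries and TNF libraries as separate points marked by replicate and a bar at each group mean. All TNF points of Casp1, Casp4 and Casp12 lie above the control points, those of Casp8 lie between 21.3 and 32.4 FPKM against 13.2 to 15.2, those of Casp6 lie below, and Casp2 and Casp9 overlap.

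In controls the ratio of Casp4 to Casp1 was 3.93, 9.63 and 0.327, so the order of the pair was not fixed. In the TNF group it was 1.72, 1.73 and 1.67. The ratio of Casp12 to Casp1 was 1.48, 1.72 and 0.286 in controls and 2.28, 1.65 and 2.40 in the TNF group. Casp12 was thus the highest of the 3 inflammatory caspases in TNF replicates 1 and 4 and Casp4 in TNF replicate 3, and their group means lay within 1 SD of each other.

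Macrophages and other myeloid cells express inflammatory caspases, and their markers varied between libraries. The 15 myeloid markers summed to 416, 472 and 1877 FPKM in the controls and to 1680, 843 and 825 FPKM in the TNF libraries. Of the 15, 10 were lower and 1 was higher in the TNF group, and 14 were at their highest in control replicate 4. C1qb, a complement subunit of macrophages, was at 43.1, 41.0 and 348 FPKM in controls and 10.01, 3.69 and 5.70 FPKM in the TNF group. Adgre1, which encodes the macrophage antigen F4/80, was at 3.16, 3.20 and 22.1 FPKM in controls and 0.431, 0.384 and 0.378 FPKM in the TNF group. The marker that was higher, Cd14, a lipopolysaccharide co-receptor, averaged 91.1 FPKM in controls and 761 FPKM in the TNF group, and it carries most of the myeloid sum there. Fewer myeloid cells and less of these RNAs per cell cannot be told apart in bulk samples. Neutrophil markers summed to 36.2 to 69.8 FPKM in controls and 7.49 to 44.3 FPKM in the TNF group, with Retnlg at 0 in all TNF libraries and Ly6g at 0 in all controls. In TNF replicates 3 and 4 that sum was mostly Mmp9, a matrix protease (34.99 and 40.98 FPKM), while the neutrophil proteins S100a8 and S100a9 were called lower, S100a8 from a mean of 17.02 to 1.86 FPKM. T and NK cell markers summed to 14.96 to 72.3 and 5.999 to 8.85 FPKM, and B and plasma cell markers to 72.0 to 681 and 294 to 450 FPKM. In TNF replicate 1, the lowest TNF library for the inflammatory caspases, fibroblast markers summed to 41.7 FPKM and endothelial markers to 0.963 FPKM, against 1084 to 1557 and 146 to 204 FPKM in the other 2 TNF libraries. The part of myeloid, neutrophil, fibroblast, endothelial and lymphoid RNA in the caspase levels was not tested.

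**Figure D2:**
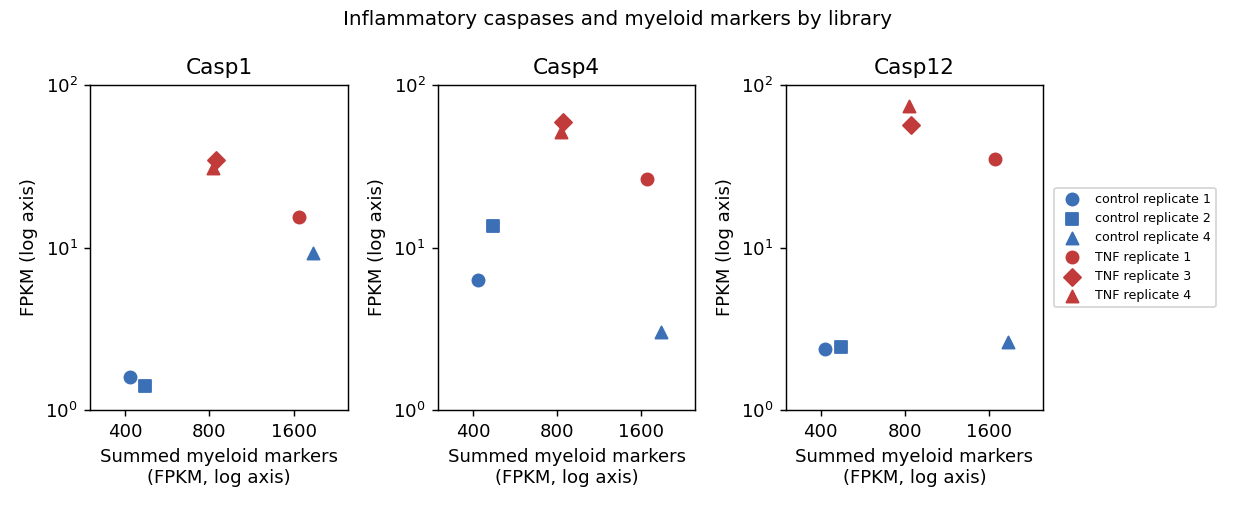
Casp1, Casp4 and Casp12 in FPKM against the summed FPKM of 15 myeloid markers, 1 point per library, both axes logarithmic. Control replicate 4 has the highest marker sum (1877 FPKM) with Casp1 at 9.25, Casp4 at 3.02 and Casp12 at 2.64 FPKM, each below its TNF values. Cd14, called higher in the TNF group, makes up most of the sum there (1085, 645 and 552 FPKM in replicates 1, 3 and 4). Of the 15 markers 10 were called lower, so the sum does not follow most of the list.

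Of the apoptotic members, Casp8 was higher in the TNF group, Casp6 was lower, and Casp2 and Casp9 overlapped between groups. Casp8 is the initiator caspase of death receptors and a brake on necroptosis. Its values were 13.2, 13.2 and 15.2 FPKM in controls against 21.3, 27.2 and 32.4 FPKM with TNF. The groups were apart, with means of 13.9 ± 1.13 and 27.0 ± 5.54 FPKM, a ratio of 1.95 and a log2 difference of 0.90. That difference was 1.11 without control replicate 4 and TNF replicate 1, and -0.18 when the libraries were scaled to basal cell markers.

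Casp6, an effector caspase that cuts lamin A, shares its row of the table with the neighbouring gene Pla2g12a, a secreted phospholipase, so its own level is uncertain. The merged row held 226, 171 and 298 FPKM in controls and 135, 72.0 and 82.1 FPKM with TNF. Every TNF library was below every control, with means of 232 ± 63.7 and 96.2 ± 33.6 FPKM, a ratio of 0.415 and a log2 difference of -1.28. A separate row for Pla2g12a alone held 2.199, 1.14 and 3.35 FPKM in controls and 0.691, 0 and 0.0624 FPKM in the TNF group. It is a row apart from the merged one, so how the merged value divides between the genes is not known.

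Casp9 is the initiator caspase of the apoptosome, the complex that forms when mitochondria release cytochrome c. Controls measured 14.6, 12.6 and 14.1 FPKM of Casp9 and TNF libraries 13.9, 9.61 and 8.38 FPKM. TNF replicate 1 lay inside the control range and the other 2 TNF libraries below it, with means of 13.8 ± 1.0 and 10.6 ± 2.90 FPKM and a log2 difference of -0.37. Exons of Casp9 overlap Cela2a and Ctrc on the opposite strand, and the row of those 2 genes was at 0.0711, 0.622 and 2.57 FPKM in controls and 0, 0.0699 and 0 FPKM in the TNF group.

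Casp2, which is activated in the PIDDosome after DNA damage or centrosome stress, had the smallest log2 difference of the 7. The 6 values were 11.8, 10.1 and 10.7 FPKM in controls and 13.8, 9.87 and 11.1 FPKM with TNF. The TNF libraries held both the highest and the lowest value, and the means were 10.9 ± 0.840 and 11.6 ± 2.01 FPKM, a log2 difference of 0.08. Casp14, a caspase of cornifying epidermis, was listed at 0 FPKM in all 6 libraries.

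Within a library the make-up of caspase transcripts turned over between the groups. Over the 6 caspases with a row of their own, all but Casp6, the summed level was 49.8, 53.4 and 54.9 FPKM in controls and 126, 197 and 208 FPKM with TNF. The 3 inflammatory genes made up 20.6%, 32.7% and 27.2% of that sum in controls and 60.9%, 76.3% and 75.1% in the TNF group. A scaling factor applied to a whole library leaves these shares as they are. Casp12 alone went from 4.71 ± 0.139% to 30.7 ± 4.22% of the sum. Casp4 went from 14.5 ± 10.1% to 25.3 ± 4.62% and Casp1 from 7.57 ± 8.04% to 14.8 ± 2.60%, and for Casp1 the SD among controls exceeded the shift. The shares of both genes overlapped between the groups. That of Casp4 was 25.5% in control replicate 2 and 20.9% and 24.7% in TNF replicates 1 and 4. That of Casp1 was 16.9% in control replicate 4 and 12.2% and 14.8% in the same TNF libraries. Among the apoptotic members, Casp8 stood higher relative to Casp9 and Casp2 in each TNF library. The ratio of Casp8 to Casp9 was 0.906, 1.05 and 1.08 in controls and 1.53, 2.83 and 3.87 in the TNF group, and that of Casp8 to Casp2 was 1.12, 1.31 and 1.42 against 1.55, 2.76 and 2.91.

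**Figure D3:**
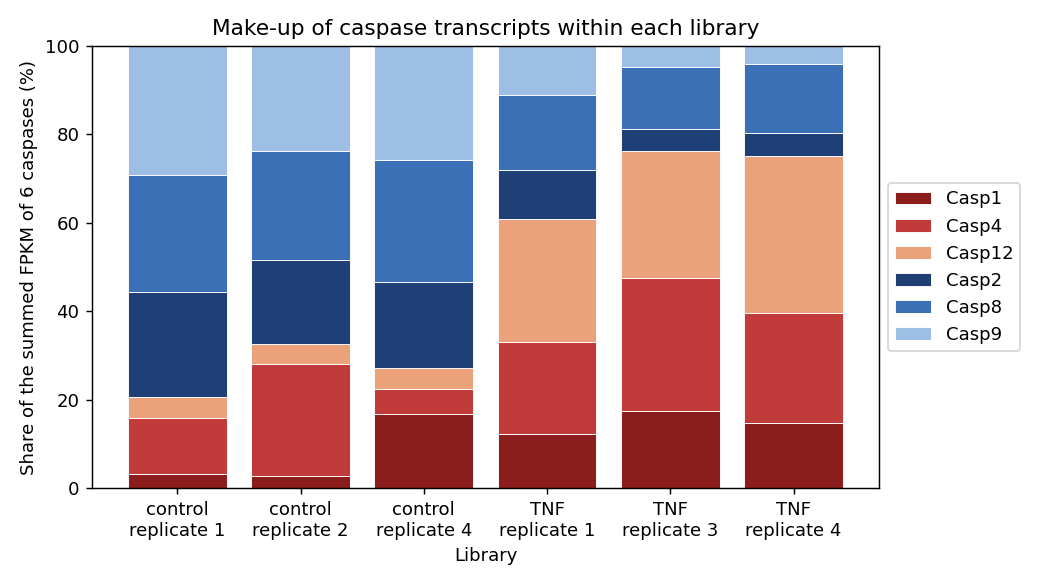
Share of the summed FPKM of 6 caspases taken by each gene, as stacked bars from 0 to 100%, 1 bar per library, with inflammatory genes in reds and apoptotic genes in blues. The reds reach 20.6% to 32.7% in controls and 60.9% to 76.3% in the TNF libraries.

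Set against each other, the mean log2(FPKM + 1) of the 3 inflammatory genes minus that of the 4 apoptotic genes, Casp6 included, was -2.82, -2.32 and -2.52 in the controls. It was -0.18, 1.17 and 1.08 in the TNF libraries, so the order of the sets was turned in 2 of these 3. The shift between groups was 3.24, and it ran from 3.0 to 3.7 over 15 alternative settings. The median log2 difference was 2.72 for the inflammatory genes, -0.15 for the apoptotic genes and -0.22 for all rows tested. Ranges of the groups did not overlap for 5 of the 7 members, 3 of 3 inflammatory and 2 of 4 apoptotic, where 53.0% of all rows tested did not overlap. With 3 libraries against 3, the smallest p that an exact two-sided permutation test can give is 0.1.

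**Figure D4:**
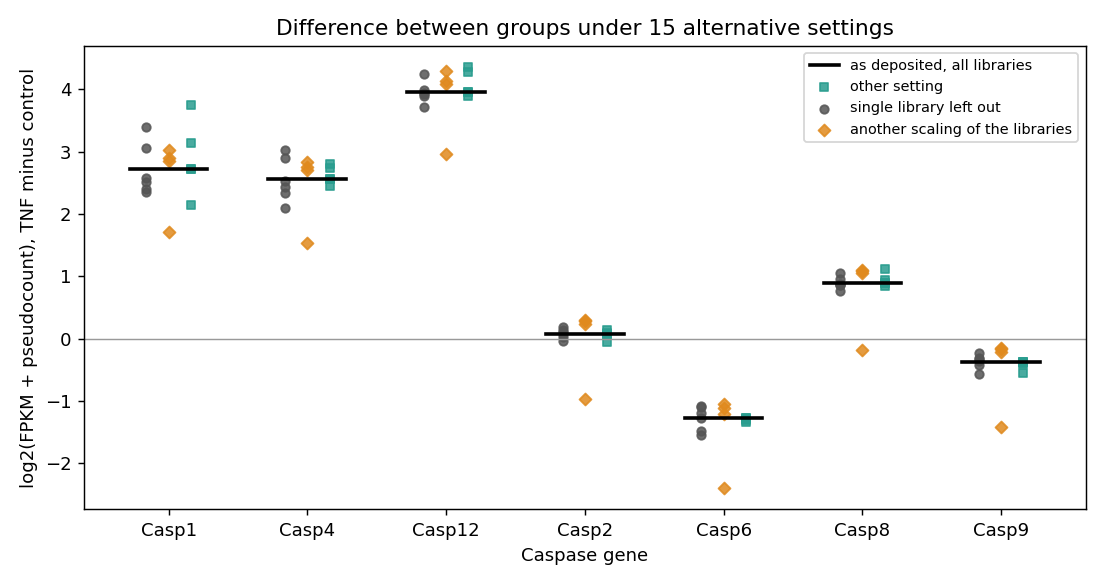
Log2 difference of each caspase between groups (TNF minus control), with the deposited values as a black bar and 15 alternative settings as points by kind. Casp1, Casp4 and Casp12 stay above 0 throughout (1.71 to 3.74, 1.54 to 3.03 and 2.96 to 4.36), Casp6 and Casp9 below, Casp8 falls below 0 once, with the basal cell scaling, and Casp2 lies on both sides.

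Across the 6 libraries the members followed one another to different degrees. These correlations are descriptions over libraries of both groups, so they include the difference between groups. Casp12 was most like Casp8 (Pearson r = 0.973 on the log2 scale), Casp4 ran opposite to Casp6 (r = -0.99), and Casp1 and Casp4, next to each other on the chromosome, were less alike (r = 0.692). Among 15036 other rows, those closest to Casp1 were AW112010, an interferon-responsive transcript, Ccne1, a cyclin, and Il12rb1, a cytokine receptor chain, at r of 0.9985, 0.9974 and 0.9973. Closest to Casp4 were Hs3st3b1, Parp14 and Birc3, at 0.9988, 0.9982 and 0.9981. Closest to Casp12 were Gm14275, the complement protease C1s1 and the annexin Anxa1, at 0.9992, 0.9985 and 0.9985. Closest to Casp9 were Sync, Slc39a6 and 0610009B22Rik, at 0.9975, 0.9958 and 0.9952. A value of at least 0.95 was reached by 85 rows for Casp1, 500 for Casp4, 533 for Casp12 and 189 for Casp9.

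Of the 8 other rows within 1000000 bp of the chromosome 9 cluster 4 were tested, and 0 of these passed as higher, against 10.9% of all rows. A set of 4 rows is too small to tell these shares apart. Kbtbd3 fell from 10.1 to 4.56 FPKM (log2 difference -0.98 ± 0.29 SE, adjusted p = 0.0356), a call that was lost in 9 of 15 alternatives, among them the omission of control replicate 1 or 4 or of TNF replicate 3 or 4 (adjusted p of 0.0995 to 0.134). The rows of Msantd4 (adjusted p = 0.669), Pdgfd (0.505) and Aasdhppt (0.103) did not pass the test. Pdgfd, a growth factor of stromal cells, was at 1.79, 1.86 and 2.69 FPKM in controls and 0.485, 6.14 and 9.61 FPKM in the TNF group, and without TNF replicate 1 its adjusted p was 0.00692. Aasdhppt passed as lower without that library (0.0406). TNF replicate 1 was also the TNF library low in fibroblast markers. The rows of Gria4, Ddi1, Gm24896 and Gm23992 were too low to test.

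Genes that act with caspases were examined in 6 lists, none holding a caspase of the set, and here the test across rows applies. Of 77 listed genes 53 were tested, 13 passed as higher (24.5%, against 10.9% of all rows) and 10 as lower (18.9%, against 27.2%). The groups did not overlap for 33 of the 53 (62.3%, against 53.0%). The count of higher genes was 7 with the basal cell scaling and 17 to 18 with the other scalings. The count of lower genes was 4 without control replicate 1 or TNF replicate 4. It was 5 without control replicate 4 or TNF replicate 3 and 6 without control replicate 2. It was 5 or 6 with the other scalings and 20 with the basal cell scaling. Calls over all rows moved with the setting as well. Lower calls over all rows were 4083 with all libraries and 1609 to 2883 with 1 of those libraries left out. They were 2965 to 3423 with the other scalings and 7976 with the basal cell scaling. Higher calls over all rows were 1635 with the deposited values, 2071 to 2735 with the other scalings and 302 with the basal cell scaling. Counts of the single lists below are to be read beside these.

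Upstream of the inflammatory caspases, 5 of 17 inflammasome genes were tested, with a median difference of 0.44. Of the 5, 1 rose (20%, against 10.9% of all rows) and 0 fell (against 27.2%). With no filter 17 were tested and 2 fell, against 4665 of 27442 rows. The count that rose differed in 3 of the 15 alternatives. Pycard, the adaptor ASC that links sensors to caspase 1, rose from 3.06, 3.44 and 2.90 FPKM in controls to 12.1, 10.1 and 11.3 FPKM in the TNF group (1.56 ± 0.19, adjusted p = 0.00141, limma). Its exons overlap an antisense gene, and with the basal cell scaling its adjusted p was 0.288. Aim2, a sensor of cytosolic DNA, was at 0.278, 0.587 and 2.31 FPKM in controls and 1.64, 1.19 and 1.87 FPKM in the TNF group (adjusted p = 0.386). Nek7, a cofactor of NLRP3, and the dipeptidase Dpp8 did not pass (0.115 and 0.704). The sensors Nlrp3 and Nlrc4 were too low to test, at 0.704 to 1.01 and 0.699 to 2.12 FPKM in controls and 0.0680 to 0.144 and 0.0483 to 0.126 FPKM in the TNF group. Aim2, Nlrp3 and Nlrc4 were picked out after their values were seen.

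Downstream, the pore former and the cytokine went opposite ways. Of 12 pyroptosis effectors and substrates 5 were tested, 1 rose (20%, against 10.9% of all rows) and 1 fell (20%, against 27.2%). With no filter 8 were tested and 2 fell, against 4665 of 27442 rows. Gsdmd, which encodes gasdermin D, rose from 10.5, 19.9 and 9.41 FPKM in controls to 108, 93.1 and 94.5 FPKM in the TNF group (2.87 ± 0.28, adjusted p = 0.000744). Il1b, the best known substrate of caspase 1, fell from 50.3, 67.5 and 134 FPKM to 13.7, 4.69 and 7.04 FPKM (-3.15 ± 0.46, adjusted p = 0.00267). Its highest value was in control replicate 4, where the myeloid markers also peaked, and its exons overlap an antisense gene. Both calls held in all 15 alternatives. Il18, the other cytokine matured by caspase 1, was at 12.2, 7.84 and 17.8 FPKM in controls and 7.39, 9.84 and 10.6 FPKM in the TNF group (adjusted p = 0.412). Ninj1, which completes membrane rupture, did not pass (0.336), nor did Gsdme (0.989).

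The partners of Casp8 held the most calls of the 6 lists, with 6 of 12 tested genes higher (50%, against 10.9% of all rows), 2 lower (16.7%, against 27.2%) and a median difference of 1.05. Tnfsf10, the death ligand TRAIL, rose from 0.839, 1.61 and 1.10 FPKM in controls to 31.7, 51.9 and 43.8 FPKM in the TNF group (4.30 ± 0.26, adjusted p = 0.000368). Fas, a death receptor, rose from 11.8, 25.9 and 5.29 FPKM to 89.5, 141 and 152 FPKM (3.27 ± 0.52, adjusted p = 0.00343). Genes of necroptosis, the form of death that caspase 8 restrains, were among those higher. Zbp1, a nucleic acid sensor, rose from a mean of 10.1 to 74.0 FPKM (2.83 ± 0.29, adjusted p = 0.000865), and Mlkl, the membrane-breaking effector, from 1.70 to 16.6 FPKM (2.72 ± 0.29, adjusted p = 0.000925). Ripk3, the kinase between them, rose from 1.63 to 9.22 FPKM (2.04 ± 0.31, adjusted p = 0.00316), and its adjusted p was 0.103 with the basal cell scaling. Cflar, which encodes the caspase 8 inhibitor cFLIP, fell from 67.1, 63.6 and 105 FPKM to 33.95, 33.8 and 28.9 FPKM (-1.23 ± 0.22, adjusted p = 0.00602).

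Tnfrsf1a, the main receptor of TNF, was at 23.5 to 50.4 FPKM in controls and 65.3 to 85.6 FPKM in the TNF group (adjusted p = 0.0258), but the call was lost on leaving out any 1 of control replicates 1 and 4 and TNF replicates 1, 3 and 4 (0.0502 to 0.0942), and its sign turned with the basal cell scaling (-0.045). Tradd (0.0788) and Ripk1 (0.0638), adaptor and kinase of the TNF receptor complex, did not pass, though Ripk1 passed without TNF replicate 1 (0.0236). Fas, Cflar and Tnfrsf1a were picked out after their values were seen.

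On the mitochondrial side, where Casp9 and Casp2 act, 0 of 10 tested genes were higher and 3 were lower, with a median of -0.19. The share lower (30%) and the median were near those of all rows (27.2% and -0.22). The count of lower genes was 1 without control replicate 1 or 4 or TNF replicate 3 or 4 and 2 without control replicate 2. Apaf1, the scaffold on which caspase 9 is activated, fell from 16.2, 12.4 and 16.3 FPKM in controls to 2.51, 4.53 and 4.597 FPKM in the TNF group (-1.73 ± 0.26, adjusted p = 0.00283), in all 15 alternatives. Diablo, an antagonist of the caspase inhibitors, fell from 88.6 to 47.6 FPKM (-0.89 ± 0.22, adjusted p = 0.0173), but without control replicate 1 or 4 or TNF replicate 3 or 4 its adjusted p was 0.0605 to 0.0773. Endog, a mitochondrial nuclease, sat at the threshold (-0.93 ± 0.30, adjusted p = 0.0499) and was called in only 3 of 15 alternatives, lost without any 1 library but TNF replicate 1. Cytochrome c (Cycs, adjusted p = 0.206) and the pore protein Bax (0.604) did not pass, though Cycs passed as lower without TNF replicate 1 (0.0304). Diablo and Endog have exons that overlap other genes.

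Among the inhibitor of apoptosis proteins and their antagonists, 2 of 6 tested genes were higher (33.3%, against 10.9% of all rows). Of the 6, 0 were lower (against 27.2%). The higher count was 1 without control replicate 1 or TNF replicate 3. Birc3, the NF-kB target cIAP2, rose from 14.1, 24.6 and 7.65 FPKM in controls to 43.0, 88.5 and 90.2 FPKM in the TNF group (2.25 ± 0.46, adjusted p = 0.00918), and its adjusted p was 0.0681 with the basal cell scaling. Xaf1, an interferon-induced antagonist of XIAP, rose from 8.52, 18.1 and 0.608 FPKM to 59.1, 99.5 and 94.2 FPKM (3.65 ± 0.85, adjusted p = 0.0157), and its adjusted p was 0.051 without control replicate 1 and 0.0521 without TNF replicate 3. Birc2, the paralogue of Birc3, was at 21.5, 23.2 and 16.3 FPKM against 24.8, 61.1 and 69.5 FPKM and just missed the threshold (0.0512), passing without TNF replicate 1 (0.00184). Birc5, the mitotic survivin, did not pass (0.371).

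Of the substrates of executioner caspases, 3 of 15 tested genes were higher (20%, against 10.9% of all rows) and 4 were lower (26.7%, near the 27.2% of all rows). The lower count was 1 on leaving out any 1 library but TNF replicate 1, and the higher count was 1 without control replicate 1 or 2 or TNF replicate 3 or 4 and 2 without control replicate 4. Lmna, which encodes the lamin cut by caspase 6, rose from 105, 76.5 and 77.6 FPKM in controls to 372, 502 and 498 FPKM in the TNF group (2.39 ± 0.21, adjusted p = 0.000561), opposite in direction to the merged Casp6 row. Gas2, a microfilament protein, fell from 12.1 to 3.80 FPKM (-1.44 ± 0.24, adjusted p = 0.00419). Krt18, a simple keratin, averaged 465 FPKM in controls and 874 FPKM with TNF (0.94 ± 0.25, adjusted p = 0.0266). Gsn, an actin-severing protein, differed by 0.72 ± 0.19 (adjusted p = 0.0264). The calls of Krt18 and Gsn were lost without control replicate 1 or 2 or TNF replicate 3 or 4, and Gsn without control replicate 4 too (adjusted p of 0.0542 to 0.11), and with the basal cell scaling both turned negative (-0.19 and -0.41). Parp1 (0.168) and Vim (0.084) did not pass, though Vim did without TNF replicate 1 (0.0203).

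**Figure D5:**
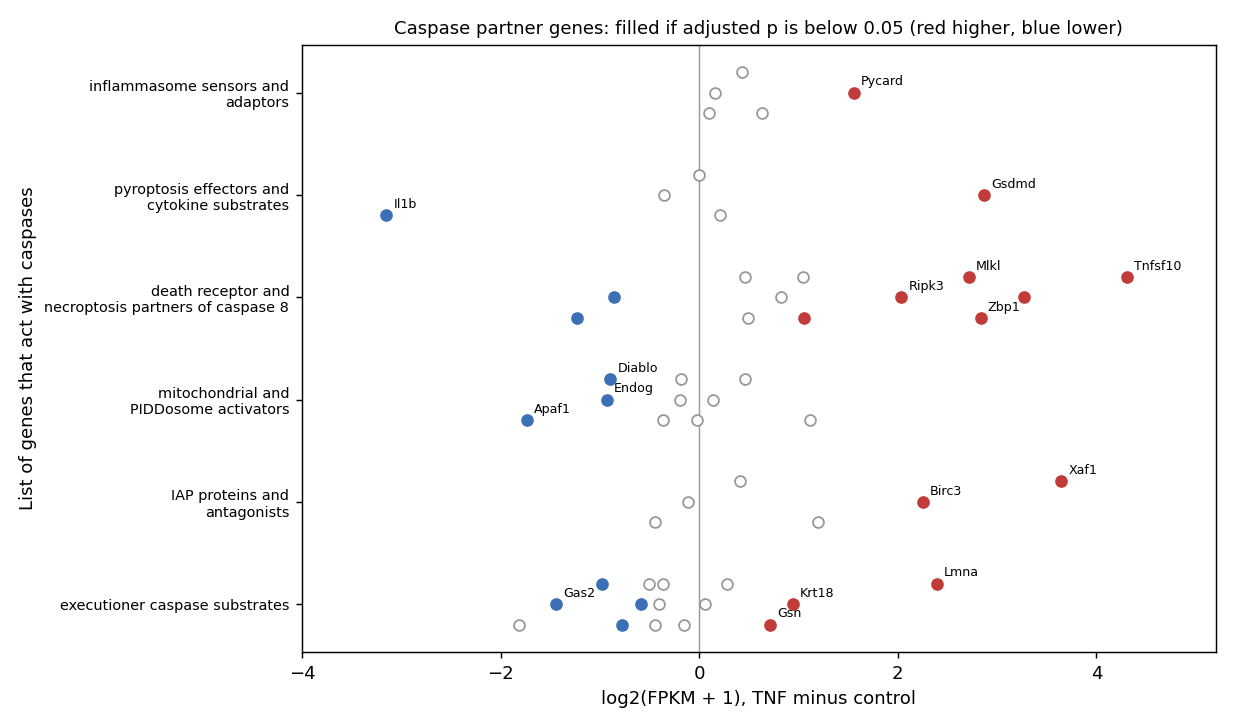
Log2 difference (TNF minus control) of each tested gene in 6 lists of caspase partners, 1 point per gene, filled where adjusted p is below 0.05. The list of Casp8 partners reaches from Cflar at -1.23 to Tnfsf10 at 4.30, and the mitochondrial list has filled points only below 0, down to Apaf1 at -1.73.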

How the data were processed

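RNA of sorted horizontal basal cells was sequenced in bulk, 3 libraries per group. Per the labels' protocols, RNA was taken from cells sorted into a lysis reagent, amplified with a SMARTer kit and made into Nextera libraries. The submitters' processing notes name bcl2fastq, FastQC 0.10.1, TopHat2 2.1.1, Cuffdiff 2.2.1 and the mm10 build. How strand and amplification copies were treated was not given in the sources used here. FPKM values were deposited by the authors as 1 table of 44519 rows. The title of that table speaks of raw counts, yet 99.98% of its values above 0 are fractional. Count models were therefore not applied, and precision cannot be set from depth.

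Rows that reached 1 FPKM in 3 or more libraries were tested by limma 3.58.1 in R 4.3.3, variance trend on, on log2(FPKM + 1), which understates the change of low genes. Group was the only term, with Benjamini-Hochberg adjustment over 15037 rows and a threshold of 0.05. On simulated data for the same comparison (200 of 15037 genes changed, 5 draws), 17.3%, 68.4% and 93.9% of changes of 1, 2 and 4 on the log2 scale were recovered. The changed genes were drawn from rows with a mean log2(FPKM + 1) above 2, so recovery of lower genes was not measured. Far fewer genes changed there than the 38.0% called in the data, so the rates need not hold for the data.

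The members, lists, tests and naming rule were chosen with earlier results of these data known. The rule named the members, of each partner list up to 4 called genes of smallest p and up to 2 uncalled ones of highest mean, cluster neighbours, and the 3 rows closest to each of 4 caspases. Marker genes it also takes are given here mainly as sums, the marker genes printed were picked after their values were seen, and a few other rows it takes are not reported here. All 163 list symbols were matched, 2 by an older name. Exon overlaps came from GENCODE M21. Besides Casp9, Pycard, Il1b, Diablo and Endog, they affect Gas2, Nek7, Dpp8, Bax, Parp1, Ripk1, Parp14, C1s1 and Sync, whose values are uncertain. Alternatives were a pseudocount of 0.1, no filter or one of 5 FPKM, omission of libraries, the replicate number as a block, and 4 scalings.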

Additional observations from a re-analysis of the deposited data

How the results depend on the processing

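In all 15 alternatives were run. The shift of inflammatory against apoptotic caspases kept its direction in all of them, at 3.0 to 3.7. Of 105 values of single members over these alternatives 94 moved by less than 1 SD of the replicates, 10 moved by more, and Casp8 changed sign once (-0.18, basal cell scaling). That scaling also turned Tnfrsf1a (-0.045), Gsn (-0.41) and Krt18 (-0.19). Leaving out 1 library moved the calls over all rows from 5718 to between 2475 and 6940, the partner genes called higher from 13 to between 9 and 15, and those called lower from 10 to between 4 and 11. The calls over all rows were fewest without control replicate 1 and most without TNF replicate 1, and counts without TNF replicate 3 or 4 or control replicate 2 or 4 were 3438 to 3763. Partner genes called lower numbered 6, 5 and 6 with median-of-ratios, upper-quartile and quantile scaling. With the basal cell scaling 7 were higher and 20 lower, and over all rows 302 were higher and 7976 lower. Of the 19 named partner genes past the threshold 9 kept the call in all alternatives: Gsdmd, Il1b, Fas, Tnfsf10, Cflar, Mlkl, Zbp1, Apaf1 and Lmna. The cause of these changes was not tested.

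The groups share replicate numbers 1 and 4 only. Deviations of same-numbered libraries correlated at -0.0638 and -0.0874, so the numbers are not taken to pair the samples. With the replicate number as a block, 2990 rows and 4 lower partner genes were called, and Pycard (adjusted p = 0.0538) and Gas2 (0.0535) were among calls lost. Absolute depth is unknown, so the precision of low values such as Nlrp3 could not be set.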
